A study of Mus musculus with 3 samples.

Results

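The genes described here are 9 components of injury signalling in photoreceptors: the ligands Lif, Fgf2 and Edn2, the receptors Lifr, Osmr, Il6st and Igf1r, the transcription factor Stat3 and its inhibitor Socs3. They were taken by gene name from the 31053 genes of the count table, and all 9 have a row in it. Counts came from single GFP-positive cells sorted as cones from the retinas of 3 mouse lines, with a separate 96-well plate, and so 1 library, for each line. Cnga3-/- mice are without one subunit of the cone cyclic nucleotide-gated channel, the Pde6ccpfl1 line carries a mutation of the catalytic subunit of cone phosphodiesterase, and the wildtype library is named for the Chrnb4-GFP reporter line. All 3 libraries are labelled postnatal day 12, and all 3 library names contain GFP. The number of animals behind each plate and the driver of GFP in the mutant lines are not given in the sources used here. The well names carry a tag that differs between plates (P08 in Cnga3-/-, P10 in Pde6ccpfl1 and P11 in wildtype) and whose meaning is not stated, so genotype, plate and this tag cannot be told apart.

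Leukaemia inhibitory factor, encoded by Lif, belongs to the interleukin-6 family of cytokines. It binds the LIF receptor (Lifr), which pairs with the shared signalling chain gp130 (Il6st). The oncostatin M receptor (Osmr) pairs with gp130 as well. The paired receptors activate Janus kinases, which phosphorylate STAT3, and STAT3 enters the nucleus and drives targets that include Socs3, an inhibitor of the same kinases. In injured mouse retina, Lif is known to be made by a subset of Muller glia, and Edn2 (endothelin 2) by stressed photoreceptors. Fgf2, basic fibroblast growth factor, is known as a survival factor of photoreceptors. Igf1r, the receptor of insulin-like growth factor 1, is a tyrosine kinase on a separate survival pathway.

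The wells used had 500 or more genes counted and no more than 30% of their counts from mitochondrial genes. They were 70 of 76 Cnga3-/-, 61 of 71 Pde6ccpfl1 and 52 of 61 wildtype wells. Kept wells held 335499, 295011 and 273080 counts in these libraries, with medians of 4056.5, 3796 and 4895 counts per well and a range of 1061 to 16935. The mutated genes had few counts: Cnga3 had 13 in Cnga3-/-, 3 in Pde6ccpfl1 and 22 in wildtype, and Pde6c had 5, 2 and 0. Counts of whole genes do not check the genotype where reads can lie outside the mutated part. The 12 cone markers summed to 267 counts in Cnga3-/-, 229 in Pde6ccpfl1 and 51 in wildtype (795.8, 776.2 and 186.8 CPM, counts of each library scaled to the same fixed total). Of these markers 12 had a count in Cnga3-/-, 11 in Pde6ccpfl1 and 7 in wildtype. The 5 at 0 in wildtype were Opn1sw, Gnat2, Gngt2, Pde6c and Cngb3, which goes against the cone label of that library. The 12 rod markers summed to 280, 203 and 111 counts. Other cell types were marked unevenly. Muller glia had 48, 34 and 57 counts over 10 markers, astrocytes 28, 39 and 22 over 4, and microglia 19, 13 and 11 over 8. Horizontal cells had 100, 103 and 112 counts over 5 markers, and pigment epithelium 48, 26 and 57 over 5. The part of these differences in the results below was not tested. Olfactory receptor genes, which retinal cells are not known to use and which serve here as a floor, stood at 3.61 CPM per kilobase of exon in Cnga3-/-, 4.16 in Pde6ccpfl1 and 4.50 in wildtype over 1134 genes. On the same scale the cone markers stood at 22.05, 21.5 and 5.17, so in wildtype they were close to this floor.

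Wells at the same plate position resembled each other across plates. Between 43 and 61 positions were kept in both plates of a pair, and 43 in all 3. Of 429 genes with at least 200 counts over the 43 positions, 365 (85.1%) were highest, in CPM of the well, at the same position in all 3 plates. The median correlation between wells at the same position was 0.41 for Cnga3-/- and wildtype, 0.37 for Pde6ccpfl1 and wildtype, and 0.37 for Pde6ccpfl1 and Cnga3-/-, while it was -0.01 for wells at different positions in each pair. The points in these correlations are genes and share the library and its depth. In the same pairs 41, 41 and 40 of the 43 wells were closest to the well at their own position. The plates therefore cannot be read as unrelated cells; the cause was not tested. Log2 ratios of the members that rest on the positions where Stat3, Osmr and Igf1r peaked (E07 and H04, H01, and C11) are given with and without those 4 positions. This choice, and those to leave out the highest well of single genes or Egr1 from its list, were made after the data were seen.

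Stat3, which carries the signal of these receptors to the nucleus, was the only one of the 9 genes with a count in most wells, and its highest wells lay at the same positions in different plates. The gene lies at chr11:100885098-100939540 on the minus strand of GRCm38. It had 409 counts in Cnga3-/-, 514 in Pde6ccpfl1 and 292 in wildtype. Per well the lowest, median and highest counts were 0, 3 and 70 in Cnga3-/-, 0, 5 and 79 in Pde6ccpfl1, and 0, 4 and 62 in wildtype, so the ranges of the 3 libraries overlapped almost wholly. Its level was 1219 CPM in Cnga3-/- (exact Poisson interval 1104 to 1343), 1742 CPM in Pde6ccpfl1 (1595 to 1900) and 1069 CPM in wildtype (950 to 1199). Per kilobase of exon these levels were 128, 183 and 112 CPM, which ranked 148, 101 and 197 among 21750 protein-coding genes. A count of Stat3 was found in 62 of 70 Cnga3-/- wells (88.6%), 59 of 61 Pde6ccpfl1 wells (96.7%) and 50 of 52 wildtype wells (96.2%). After each well was thinned to 1400 counts the shares were 73.8% of 65, 79.6% of 54 and 68.8% of 48 wells. Before thinning, olfactory receptor genes had a median share of 1.43% of wells in Cnga3-/- and 0% in both Pde6ccpfl1 and wildtype. The gene at their 95th percentile then had 10.0%, 11.5% and 13.5%. After thinning, the gene at that percentile had 4.62%, 3.70% and 4.17%. Stat3 thus stood above the floor in every library. The 12 wells without Stat3 were mostly shallow: 8 Cnga3-/- wells with 1148 to 2002 counts in all, 2 Pde6ccpfl1 wells with 1530 and 2447, and 2 wildtype wells with 1544 and 4507.

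Most of the spread of Stat3 between wells came from 2 plate positions. At E07 the well had 65 Stat3 counts in Cnga3-/-, 79 in Pde6ccpfl1 and 62 in wildtype, which was 1.23%, 0.986% and 1.09% of all counts of those wells. At H04 it had 75 in Pde6ccpfl1 and 70 in Cnga3-/- (1.21% and 1.16% of the well), and H04 of the wildtype plate was not analysed here. Both positions are far above the rest of each plate. E07 and H04 together gave 33.0% of Stat3 counts in Cnga3-/- and 30.0% in Pde6ccpfl1, and E07 alone gave 21.2% in wildtype. In the remaining wells Stat3 ranged from 0 to 19 counts in Cnga3-/-, 0 to 21 in Pde6ccpfl1 and 0 to 13 in wildtype, at 845, 1282 and 860 CPM. The variance of Stat3 counts over wells was 16.7, 12.8 and 10.9 times that of counting alone in Cnga3-/-, Pde6ccpfl1 and wildtype. Without C11, E07, H01 and H04 these ratios were 1.12, 1.04 and 0.786, close to the value of 1 that counting alone gives. Across wells, Stat3 counts followed the depth of the well, with Spearman's rho of 0.76 over 70 Cnga3-/- wells, 0.81 over 61 Pde6ccpfl1 wells and 0.77 over 52 wildtype wells.

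**Figure D1:**
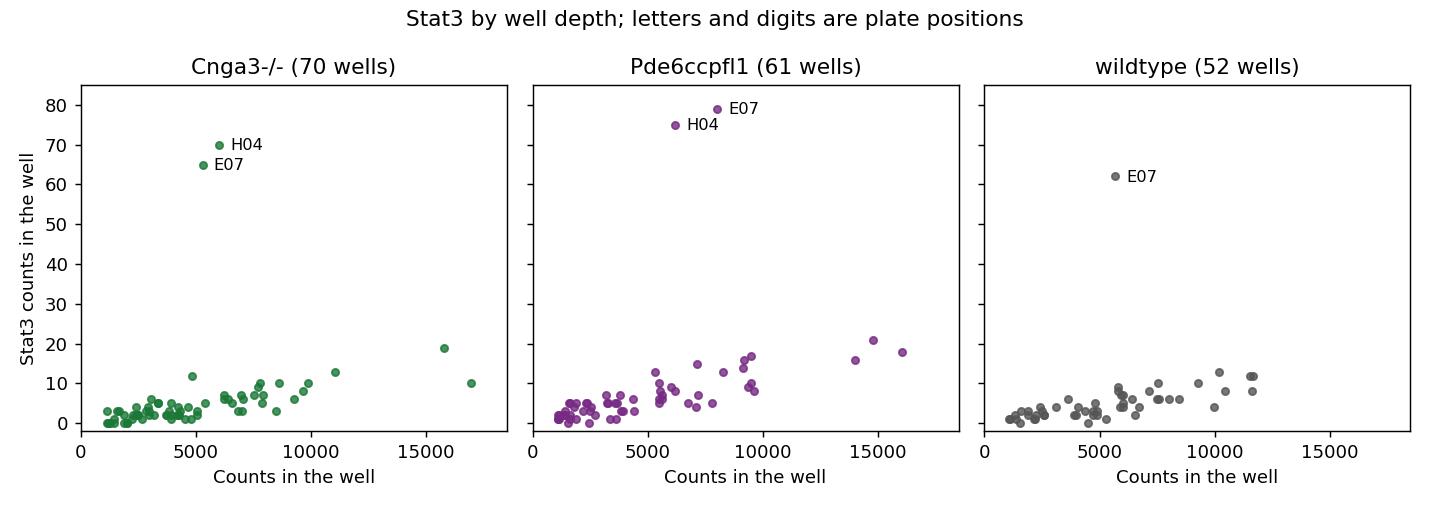
Stat3 counts of each kept well (y axis) against all counts of that well (x axis), with 1 panel for each library and 1 point for each well. Wells E07 and H04 stand at 62 to 79 counts, while the other wells reach at most 21.

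Stat3 was higher in the Pde6ccpfl1 library than in either other library, and this held within shared positions. For Pde6ccpfl1 over wildtype the log2 ratio was 0.70 (exact interval 0.49 to 0.92), a 1.63-fold difference (1.41 to 1.89). That of Pde6ccpfl1 over Cnga3-/- was 0.52 (0.33 to 0.71), or 1.43-fold. With each well thinned to 1400 counts these were 0.55 (0.11 to 0.997) and 0.33 (-0.06 to 0.72), so the second no longer lay beyond counting error. Thinning discards counts, which by itself widens an interval. That of Cnga3-/- over wildtype was 0.19 (-0.03 to 0.41), which is within counting error, although with median-of-ratios factors it was 0.33 (0.11 to 0.55) and with TMM 0.27 (0.05 to 0.49). Without the 4 positions the log2 ratios were 0.56 (0.32 to 0.81) for Pde6ccpfl1 over wildtype, 0.62 (0.38 to 0.85) for Pde6ccpfl1 over Cnga3-/- and -0.06 (-0.32 to 0.21) for Cnga3-/- over wildtype. The last of these differs in sign from the value over all wells, and neither lies beyond counting error. Restricted further to positions that both plates share, CPM of the well was higher in Pde6ccpfl1 at 29 of 41 positions and higher in wildtype at 12. Against Cnga3-/- it was higher in Pde6ccpfl1 at 45 of 57 positions, higher in Cnga3-/- at 11 and tied at 1. For Cnga3-/- over wildtype it was higher in Cnga3-/- at 20 of 48 positions and higher in wildtype at 28. Over wells with a cone marker count alone, the log2 ratio of Stat3 was 0.96 (0.67 to 1.26) for Pde6ccpfl1 over wildtype. For Pde6ccpfl1 over Cnga3-/- it was 0.49 (0.30 to 0.69). For Cnga3-/- over wildtype it was 0.47 (0.17 to 0.78), which lies beyond counting error. The wells used for these values were 60 Cnga3-/-, 57 Pde6ccpfl1 and only 20 wildtype wells. In wildtype the cone markers were close to the olfactory floor. There is 1 library per genotype, wells are not replicates, and no difference between libraries has a replicate check; the intervals cover counting error only.

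The Stat3 promoter and those of Osmr and Socs3 are shown because Osmr and Socs3 sit on either side of STAT3 in the pathway, as a receptor above it and a target below it. Each is the reference sequence of RefSeq on GRCm38.p6, from 250 bases before to 50 bases after the gene's start, written 5′ to 3′ on the minus strand, on which all 3 genes lie. The start is that of the RefSeq table, so the Osmr and Socs3 windows lie inside the longer GENCODE spans given for these genes here. Capitals mark the STAT site TTCNNNGAA and the GC box GGGCGG or its complement CCGCCC.
Stat3, chr11:100939491-100939790: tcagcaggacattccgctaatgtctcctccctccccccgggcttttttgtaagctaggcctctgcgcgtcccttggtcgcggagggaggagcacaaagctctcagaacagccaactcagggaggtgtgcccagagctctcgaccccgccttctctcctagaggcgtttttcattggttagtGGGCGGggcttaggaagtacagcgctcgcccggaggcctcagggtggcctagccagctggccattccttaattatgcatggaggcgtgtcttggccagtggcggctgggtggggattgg
Osmr, chr15:6874264-6874563: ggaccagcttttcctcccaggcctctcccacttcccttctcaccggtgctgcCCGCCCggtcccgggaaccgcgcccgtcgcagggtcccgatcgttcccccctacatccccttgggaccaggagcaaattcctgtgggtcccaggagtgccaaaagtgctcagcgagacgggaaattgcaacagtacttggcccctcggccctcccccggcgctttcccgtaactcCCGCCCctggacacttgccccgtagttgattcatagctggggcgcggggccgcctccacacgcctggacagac
Socs3, chr11:117969317-117969616: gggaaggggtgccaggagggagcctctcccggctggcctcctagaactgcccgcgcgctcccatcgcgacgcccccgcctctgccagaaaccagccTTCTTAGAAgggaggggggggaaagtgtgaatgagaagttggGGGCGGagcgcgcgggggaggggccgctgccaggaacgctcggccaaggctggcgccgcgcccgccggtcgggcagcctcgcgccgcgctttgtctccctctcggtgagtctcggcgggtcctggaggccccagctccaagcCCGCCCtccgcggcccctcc
Both strands were searched, and the STAT site reads the same in its fixed letters on either. TTCNNNGAA occurs in 8.30% of 32851 mouse promoters of this length and in 1 of the 10 promoter entries of the 9 genes, that of Socs3, where it begins 154 bases before the start. The narrower form TTCCNGGAA, which lies within the first motif, occurs in 1.15% of promoters and in 0 of the 10. A GC box occurs in 35.7% of promoters and in 7 of the 10 entries, those of Fgf2, Igf1r, Il6st, Lifr, Osmr, Socs3 and Stat3. A match in this window is a description of letters only.

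Of the receptors, Osmr, which binds oncostatin M together with gp130, had the largest ratio in favour of Pde6ccpfl1. Osmr (chr15:6813577-6874969, minus strand) had 20 counts in Cnga3-/-, 46 in Pde6ccpfl1 and 16 in wildtype, at 59.6 CPM (36.4 to 92.1), 156 CPM (114 to 208) and 58.6 CPM (33.5 to 95.1). A count was found in 11 of 70 Cnga3-/- wells (15.7%), 25 of 61 Pde6ccpfl1 wells (41.0%) and 10 of 52 wildtype wells (19.2%). The share of wells in Pde6ccpfl1 was above that of the olfactory gene at the 95th percentile by more than it was in the other libraries. Per kilobase Osmr stood at 4.92 CPM in Cnga3-/-, 12.9 in Pde6ccpfl1 and 4.84 in wildtype, against 12.1, 11.4 and 11.5 CPM per kilobase for the olfactory gene at the 95th percentile. The Pde6ccpfl1 value stood above that reference over all wells, but its interval (9.42 to 17.2) takes the reference in, and without well H01 it was 10.5 and under it. After thinning, the shares of wells were 7.69%, 16.7% and 4.17%.

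The log2 ratio of Osmr was 1.41 (0.56 to 2.33) for Pde6ccpfl1 over wildtype, which is 2.66-fold (1.48 to 5.04), and 1.39 (0.60 to 2.22) for Pde6ccpfl1 over Cnga3-/-, which is 2.62-fold. For Cnga3-/- over wildtype it was 0.02 (-0.997 to 1.07). The well H01 had 9 Osmr counts in Pde6ccpfl1 and 9 in Cnga3-/-, the most in either plate, and H01 of the wildtype plate was not analysed here. The other wells held 37 counts in Pde6ccpfl1 and 11 in Cnga3-/-, so H01 carried 19.6% of the Pde6ccpfl1 total and 45.0% of the Cnga3-/- total. Without the 4 positions Osmr had 8 counts in Cnga3-/-, 35 in Pde6ccpfl1 and 14 in wildtype. The log2 ratios were then 1.27 (0.34 to 2.28) for Pde6ccpfl1 over wildtype, 2.35 (1.22 to 3.67) for Pde6ccpfl1 over Cnga3-/- and -1.08 (-2.54 to 0.27) for Cnga3-/- over wildtype. The excess over Cnga3-/- was larger without them, but in thinned wells it was 0.75 (-0.52 to 2.08) and within counting error. Within the 43 positions that Pde6ccpfl1 and wildtype share, Osmr had 28 and 16 counts, and the log2 ratio of 0.89 (-0.04 to 1.88) no longer lay beyond counting error. Within the wells that had a cone marker count (57 Pde6ccpfl1 and 20 wildtype wells) it was 2.38.

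Lifr, the receptor chain that binds Lif, differed in the other direction, with its highest level in Cnga3-/-. Lifr (chr15:7090614-7197489, plus strand) had 36 counts in Cnga3-/-, 11 in Pde6ccpfl1 and 12 in wildtype, at 107 CPM (75.2 to 149), 37.3 CPM (18.6 to 66.7) and 43.9 CPM (22.7 to 76.8). A count was found in 24 Cnga3-/- wells (34.3%), 9 Pde6ccpfl1 wells (14.8%) and 9 wildtype wells (17.3%), and 18.5%, 7.41% and 6.25% after thinning. In contrast to Stat3 and Osmr, the counts were spread thinly, with at most 5, 2 and 2 in a well. The log2 ratio was 1.29 (0.31 to 2.37) for Cnga3-/- over wildtype, which is 2.44-fold, and -1.52 (-2.65 to -0.52) for Pde6ccpfl1 over Cnga3-/-. That of Pde6ccpfl1 over wildtype was -0.24 (-1.56 to 1.07). Leaving out the 4 positions gave 1.31 (0.29 to 2.45), -1.50 (-2.68 to -0.44) and -0.19 in the same comparisons. Without the 5 deepest wells of each library Lifr in Cnga3-/- over wildtype stood at a log2 ratio of 2.58 (1.08 to 4.55). That setting leaves out wildtype wells A04, D07 and H11, which held 2 each of the 12 wildtype counts. In thinned wells the intervals took in 0, at 1.68 (-0.19 to 4.13) for Cnga3-/- over wildtype and -1.43 (-3.51 to 0.26) for Pde6ccpfl1 over Cnga3-/-. Per kilobase Lifr stood at 9.96 CPM in Cnga3-/-, 3.46 in Pde6ccpfl1 and 4.08 in wildtype, all under the olfactory gene at the 95th percentile. The values of Pde6ccpfl1 and wildtype were under the level of the summed olfactory genes. By share of wells before thinning, Lifr was above the olfactory gene at the 95th percentile (10.0%, 11.5% and 13.5%) in each library. Shares are not scaled for exon length.

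The shared chain Il6st (chr13:112464070-112510086, plus strand) had 9 counts in Cnga3-/-, 7 in Pde6ccpfl1 and 7 in wildtype, at 26.8, 23.7 and 25.6 CPM. These counts lay in 9, 7 and 5 wells. Its log2 ratios were 0.07 (-1.53 to 1.73) for Cnga3-/- over wildtype, -0.11 (-1.85 to 1.63) for Pde6ccpfl1 over wildtype and -0.18 (-1.84 to 1.42) for Pde6ccpfl1 over Cnga3-/-. Each interval takes in a 2-fold difference in both directions. Per kilobase, 2.42, 2.14 and 2.31 CPM were under the level of the summed olfactory genes in each library, but above the median olfactory gene (0.69, 0 and 0). Its share of wells was 12.9%, 11.5% and 9.62%, against 10.0%, 11.5% and 13.5% for the olfactory gene at the 95th percentile. Shares are not scaled for exon length. Whether the chain that pairs with Lifr and Osmr stood above the floor is thus not settled at this depth.

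Igf1r (chr7:67952827-68233668, plus strand) had 52 counts in Cnga3-/-, 49 in Pde6ccpfl1 and 36 in wildtype, at 155 CPM (116 to 203), 166 CPM (123 to 220) and 132 CPM (92.3 to 183). The 3 levels overlapped in their counting intervals. A count was found in 22 Cnga3-/- wells (31.4%), 26 Pde6ccpfl1 wells (42.6%) and 16 wildtype wells (30.8%). After thinning, the shares were 13.8%, 18.5% and 18.75%. Per kilobase Igf1r stood at 9.23, 9.89 and 7.85 CPM. These levels were above the summed olfactory genes but under the olfactory gene at the 95th percentile (12.1, 11.4 and 11.5). By share of wells before thinning, Igf1r was above that percentile (10.0%, 11.5% and 13.5%), though shares are not scaled for exon length. Its highest count lay in well C11 of every plate, with 9, 8 and 8 counts, which was 17.3%, 16.3% and 22.2% of the total. The log2 ratio was 0.23 (-0.41 to 0.89) for Cnga3-/- over wildtype, 0.33 (-0.32 to 1.00) for Pde6ccpfl1 over wildtype and 0.10 (-0.49 to 0.69) for Pde6ccpfl1 over Cnga3-/-. None of the 3 lies beyond counting error, and neither do the values without the 4 positions, which were 0.38 (-0.36 to 1.15), 0.54 (-0.22 to 1.31) and 0.15 (-0.52 to 0.82) in the same order.

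**Figure D2:**
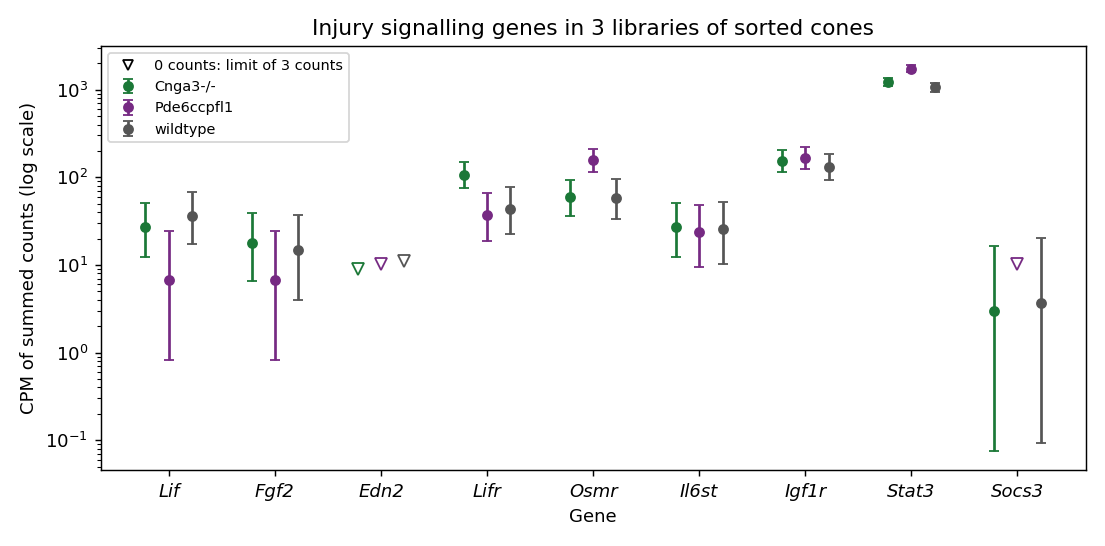
Level of each of the 9 genes in CPM of the library (log axis) in Cnga3-/-, Pde6ccpfl1 and wildtype, with exact 95% Poisson intervals as bars and a triangle at the limit a count of 0 allows. Stat3 stands over 1000 CPM in each library, Osmr and Igf1r at 58.6 to 166 CPM, and Edn2 only as a limit.

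The ligands were near or at 0. Lif (chr11:4257557-4272514, plus strand) had 9 counts in Cnga3-/-, 2 in Pde6ccpfl1 and 10 in wildtype, in 5, 2 and 6 wells. The well C02 held 5 of them in Cnga3-/-, 0 in Pde6ccpfl1 and 3 in wildtype. The log2 ratio of Lif was -2.43 (-5.66 to -0.20) for Pde6ccpfl1 over wildtype, -1.98 (-5.23 to 0.29) for Pde6ccpfl1 over Cnga3-/- and -0.45 (-1.92 to 1.00) for Cnga3-/- over wildtype. The first of these rests on 2 counts against 10 and was -2.22 (-5.47 to 0.05) without the 4 positions, and within the 43 shared positions Lif had 0 counts in Pde6ccpfl1 and 9 in wildtype. Fgf2 (chr3:37348346-37410108, plus strand) had 6 counts in Cnga3-/-, 2 in Pde6ccpfl1 and 4 in wildtype, and its log2 ratios were 0.29 (-1.79 to 2.56) for Cnga3-/- over wildtype, -1.11 (-4.58 to 1.69) for Pde6ccpfl1 over wildtype and -1.40 (-4.74 to 1.08) for Pde6ccpfl1 over Cnga3-/-. Its gene span overlaps those of Nudt6 and the antisense gene Fgf2os on the opposite strand, and that of Gm43439 on its own strand over 56521 bases. Overlap of exons was not computed, so whether reads of these genes enter its counts was not tested. Edn2 (chr4:120161206-120167360, plus strand) had 0 counts in all 3 libraries, which allows up to 8.94 CPM in Cnga3-/-, 10.2 in Pde6ccpfl1 and 10.99 in wildtype (3 counts per library), and a count in up to 4.29%, 4.92% and 5.77% of wells.

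Socs3 (chr11:117966079-117970047, minus strand), the inhibitor that STAT3 is known to induce, had 1 count in Cnga3-/-, 0 in Pde6ccpfl1 and 1 in wildtype. Both groups of any pair are at or under the floor of 3 counts, so no fold is given. The library with the highest Stat3 level thus had no Socs3 count, but at this depth a count of 0 allows up to 10.2 CPM of Socs3 in Pde6ccpfl1.

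Most of the 9 genes were too low to compare. In Cnga3-/- over wildtype 2 of 9 (Stat3 and Igf1r) passed the filter of 50 counts over both libraries and a count in 20% of the wells of one, and 0 of these were 2-fold apart, against 22.9% of 1723 genes compared. The background split into 11.2% higher and 11.7% lower genes (193 and 202); with median-of-ratios factors it was 219 higher and 140 lower, and with TMM 206 and 167. In Pde6ccpfl1 over wildtype 3 passed (Stat3, Osmr and Igf1r), with 1 at least 2-fold higher, Osmr, and 0 lower, against 10.2% higher and 15.2% lower of 1600 genes. In Pde6ccpfl1 over Cnga3-/- the same 3 genes passed, again with Osmr as the 1 at least 2-fold higher, against 6.44% higher and 9.33% lower of 1693 genes. The median log2 ratio over all compared genes was -0.32 for Cnga3-/- over wildtype, -0.16 for Pde6ccpfl1 over wildtype and 0.07 for Pde6ccpfl1 over Cnga3-/-, so a ratio near 0 for Stat3 in the first comparison lies above the middle of all genes. The medians over the members compared were 0.21, 0.70 and 0.52. Lifr, with 36 counts in Cnga3-/- and 12 in wildtype, missed the filter.

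**Figure D3:**
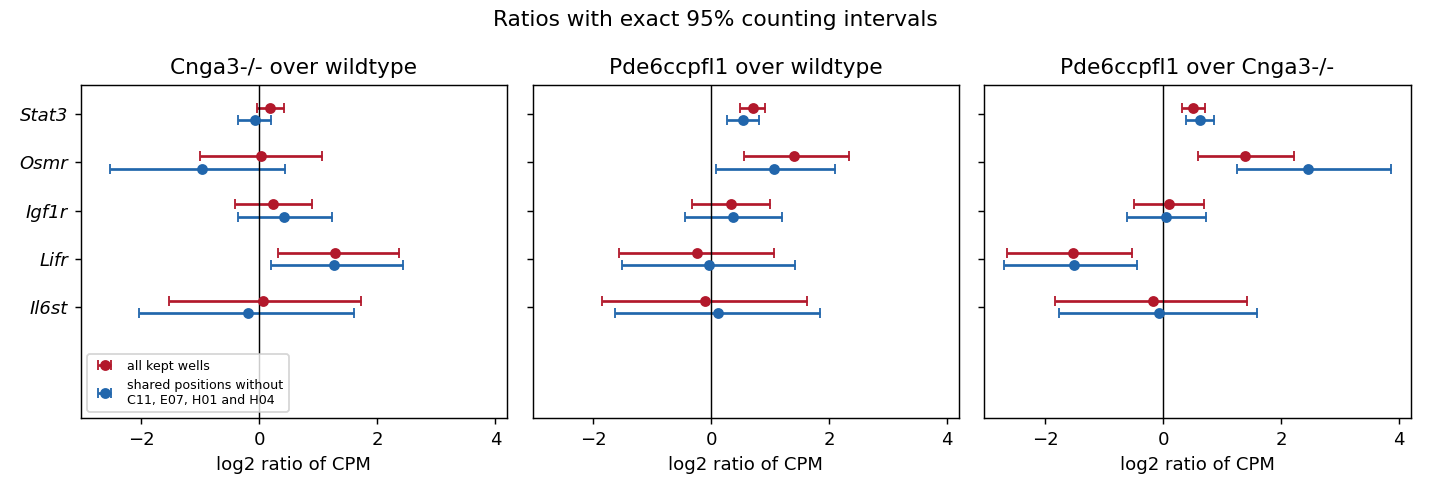
Log2 ratios of CPM with exact 95% counting intervals for Stat3, Osmr, Igf1r, Lifr and Il6st in the 3 comparisons, over all kept wells (red) and over shared positions without C11, E07, H01 and H04 (blue). Stat3 in Pde6ccpfl1 stays to the right of 0 in both panels that have Pde6ccpfl1 on top, and Lifr lies to the left of 0 in Pde6ccpfl1 over Cnga3-/-.

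The other genes of these pathways were read from 10 lists with 108 genes, of which 99 are not among the 9. Summed over the 3 libraries, 14 reached 50 counts and 94 stayed below this, of which 10 had none. Of the list genes compared, 1 was at least 2-fold higher (Spry1) and 1 lower (Igfbp3) in Cnga3-/- over wildtype, out of 10. The Spry1 value rests on well G10, which was not kept in wildtype, and without it Spry1 was 1.57-fold apart. In Pde6ccpfl1 over wildtype 2 of 9 were higher (Osmr and Stat5a) and 0 lower, and in Pde6ccpfl1 over Cnga3-/- 1 of 12 was higher (Osmr) and 0 lower. Of all genes compared, 22.9%, 25.4% and 15.8% were at least 2-fold apart in these 3 comparisons, in the order given. The list genes were not apart more often than that. Stat5a was 1.98-fold apart without well H04, which was not analysed in wildtype. The median log2 ratio of the list genes compared was 0.10, 0.05 and -0.01 in these comparisons, beside -0.32, -0.16 and 0.07 over all genes compared. By summed counts, the 7 IL-6 family receptors had 80 in Cnga3-/-, 74 in Pde6ccpfl1 and 50 in wildtype, the 7 STAT factors 486, 578 and 338, and the 16 JAK-STAT inhibitors 72, 68 and 62. Stat3 makes up most of the STAT sum, and the receptor sum hides the opposite order of Osmr and Lifr. The 18 STAT3 and gliosis targets summed to 109 counts in Cnga3-/-, 92 in Pde6ccpfl1 and 60 in wildtype. Without Egr1 they summed to 67, 73 and 57, or 199.7, 247 and 209 CPM. The 13 genes of the insulin-like growth factor system summed to 608, 666 and 930, and Igfbp3 makes up most of this sum (367, 447 and 743). The median log2 ratio of the genes of this system that were compared was 0.23 for Cnga3-/- over wildtype. For Pde6ccpfl1 over wildtype that median was 0.05. The 7 genes of the endothelin system summed to 34, 28 and 26. The 15 FGF system genes summed to 188, 149 and 181, and 13 other trophic factors and receptors to 109, 66 and 77. No list was tested. Lists were chosen with earlier results of these data known.

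Among the IL-6 family cytokines, Clcf1 (cardiotrophin-like cytokine factor) had 7 counts in Cnga3-/-, 12 in Pde6ccpfl1 and 6 in wildtype. The Janus kinases, which phosphorylate STAT3, summed to 35, 45 and 28 counts, and their sum stood at a log2 ratio of 0.57 (-0.14 to 1.31) for Pde6ccpfl1 over wildtype. Jak1 had 14, 19 and 14 counts, of which well E07, where Stat3 was high, held 8 in Pde6ccpfl1 and 7 in Cnga3-/-, which leaves 7, 11 and 12 outside it. Jak3, the kinase of common gamma chain cytokine receptors, had 11, 18 and 5 counts, and 5, 9 and 5 without well B11, which was not among the wildtype wells used. Of the STAT factors, Stat5a, a relative of STAT3 whose gene overlaps Stat3 by 72 bases on the opposite strand, had 33 counts in Cnga3-/-, 40 in Pde6ccpfl1 and 11 in wildtype. Its log2 ratio was 1.29 (0.27 to 2.42) for Cnga3-/- over wildtype and 1.75 (0.76 to 2.86) for Pde6ccpfl1 over wildtype. Well H04 carried 17 of the Pde6ccpfl1 counts and 14 of the Cnga3-/- counts (42.5% and 42.4%), so Stat5a and Stat3 shared a high well. Without H04 the log2 ratios of Stat5a were 0.52 (-0.63 to 1.74) for Cnga3-/- over wildtype and 0.98 (-0.11 to 2.17) for Pde6ccpfl1 over wildtype, both within counting error. Reads from the overlap cannot be told apart without a stated strand. The inhibitors Pias4 and Ptpn1 had 14 and 12 counts in Cnga3-/-, 16 and 7 in Pde6ccpfl1, and 10 and 8 in wildtype.

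Among STAT3 and gliosis targets, Egr1, an immediate early transcription factor, had 42 counts in Cnga3-/-, 19 in Pde6ccpfl1 and 3 in wildtype, which gives log2 ratios of 3.51 (1.86 to 5.84) for Cnga3-/- over wildtype and 2.55 (0.79 to 4.95) for Pde6ccpfl1 over wildtype. Egr1 passed the filter only in Pde6ccpfl1 over Cnga3-/-, where its log2 ratio was -0.96 (-1.82 to -0.15). Its highest wells lay at different positions in the 3 plates (C07, B02 and G12). Igfbp3, a binding protein of insulin-like growth factors, had 367 counts in Cnga3-/-, 447 in Pde6ccpfl1 and 743 in wildtype, which gives log2 ratios of -1.31 (-1.50 to -1.13) for Cnga3-/- over wildtype and -0.84 (-1.02 to -0.67) for Pde6ccpfl1 over wildtype. The well A05 carried 130, 129 and 183 of these counts. Igf2r, which takes up insulin-like growth factor 2, had 34, 12 and 16 counts, and for Pde6ccpfl1 over Cnga3-/- it stood at a log2 ratio of -1.32 (-2.40 to -0.33). Of the endothelin system, Ece1 (which cleaves the precursor) had 7, 14 and 8 counts and Edn1 9, 5 and 6. Spry1, an inhibitor of FGF signalling, had 46, 28 and 12 counts, a log2 ratio of 1.64 (0.70 to 2.69) for Cnga3-/- over wildtype, and well G10 held 11 of the Pde6ccpfl1 counts and 23 of the Cnga3-/- counts. Without G10 it was 0.65 (-0.41 to 1.79), within counting error. The neurotrophin receptors Ntrk2 and Ntrk3 had 32 and 17 counts in Cnga3-/-, 20 and 9 in Pde6ccpfl1, and 26 and 9 in wildtype.

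Of the 14 list genes with at least 50 counts, the well with the most counts lay at the same position in all 3 plates for 7, in 2 plates for 5 and in no pair of plates for 2 (Egr1 and Insr). Stat3 (2 plates) and Igf1r (3 plates) are themselves among the 14. Where wells tied for the most counts, 1 of them was taken, as for Lifr in wildtype at 2 counts. Of all genes with at least 200 counts over the 43 positions, 85.1% were highest at the same position in all 3 plates, by CPM of the well. Irs2, an adaptor of the Igf1r pathway chosen after its values were seen, had 100 counts in Cnga3-/-, 112 in Pde6ccpfl1 and 100 in wildtype. Its highest well was F11 in every plate, with 41, 39 and 34 counts, or 3.62%, 3.40% and 3.20% of all counts of the well. Pearson's correlation of Stat3 CPM between wells at the same position was 0.92 for Cnga3-/- and wildtype (50 positions), 0.88 for Pde6ccpfl1 and wildtype (43) and 0.92 for Pde6ccpfl1 and Cnga3-/- (61), and 0.12, -0.01 and 0.20 without the 4 positions. This Pearson likeness of Stat3 thus rests mainly on E07 where wildtype is in the pair, and on E07 and H04 between the mutant plates. Without the 4 positions Spearman's rho was 0.14, 0.11 and 0.27 in the same order.

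**Figure D4:**
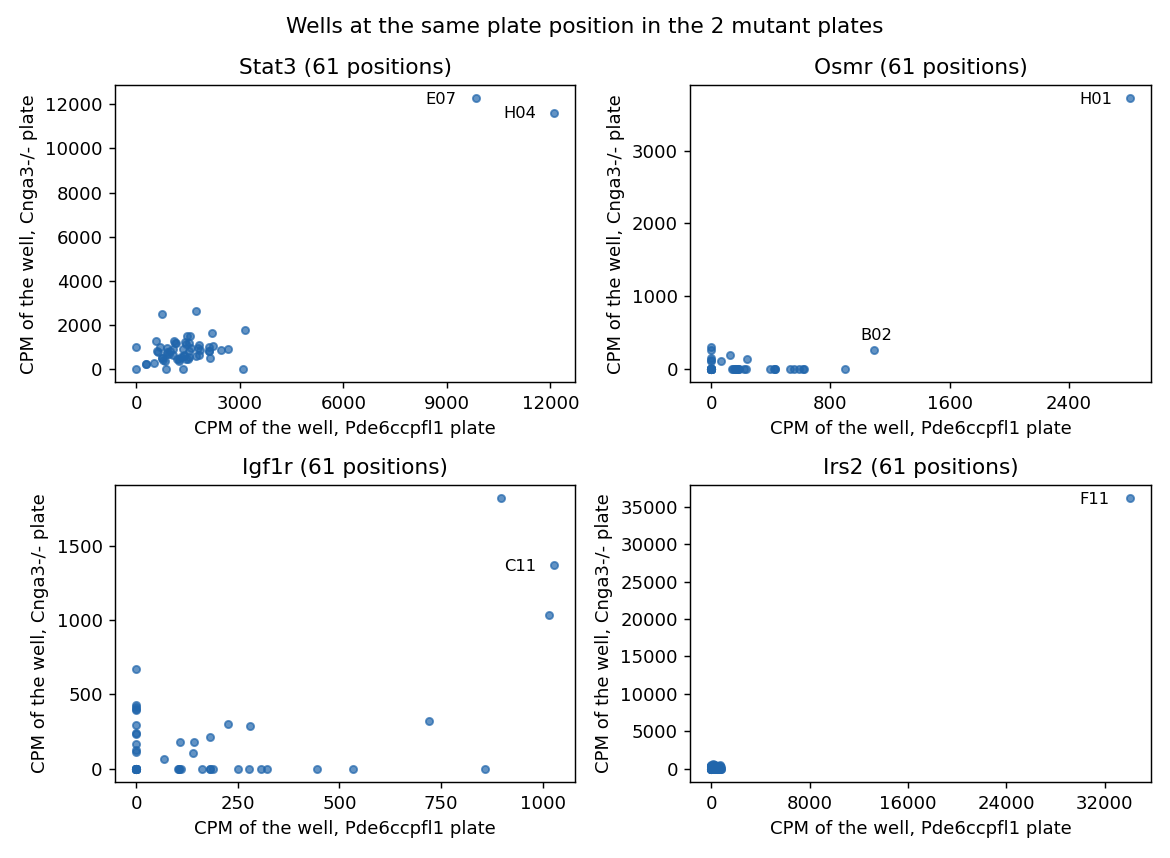
CPM of Stat3, Osmr, Igf1r and Irs2 in wells at the same plate position in Pde6ccpfl1 (x axis) and Cnga3-/- (y axis), with 1 point for each of 61 shared positions. E07 and H04 for Stat3, H01 for Osmr and F11 for Irs2 stand apart in both plates, while for Igf1r C11 is among the high wells.

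The genes most like Stat3 over the 3 libraries, by the distance of log2 CPM centred on each gene's mean among 468 genes with at least 200 counts, were Kcnd2 (distance 0.11), Crim1 (0.14) and Slco1a5 (0.15). Kcnd2 had 328 CPM in Cnga3-/-, 508 CPM in Pde6ccpfl1 and 319 CPM in wildtype. Those most like Igf1r were Mgmt (0.043), Ppp1r17 (0.045) and Slfn5 (0.048). With 3 libraries such likeness says nothing of shared function or control.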

How the data were processed

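The deposited table held raw counts per gene and well, per the file headers; per the submitters' processing notes it was made with featureCounts (no version given) and the genome build GRCh38. That build is human and the symbols are mouse, of which 30464 (98.1%) are in GENCODE M21, so no coordinate of that build was used; the aligner, molecular identifiers and strand are not given in the sources used here. Libraries were prepared with an adapted SMARTseq2 and MARS-seq protocol, per the labels. Wells were matched to lines by column name, and all 208 columns were used.

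Counts of kept wells were summed per library and divided by the total (CPM), with exact Poisson intervals. Log2 ratios have exact 95% intervals conditional on the total (Clopper-Pearson). With 1 library per genotype no test was run. Without molecular identifiers counts need not be independent molecules, so intervals and floors cover counting error only. Wells were thinned to 1400 counts for shares, leaving out 5 Cnga3-/-, 7 Pde6ccpfl1 and 4 wildtype wells. No doublet caller was run, and no cells were clustered. The script was tested on simulated data. Exon lengths and positions came from GENCODE M21 on GRCm38. The members and lists were chosen with earlier results of these data known. Named list genes were those with at least 50 counts and 2-fold apart, otherwise the 2 with the most counts in a list; the others are counted. Alternatives are in the closing section. Tools were Python 3.11.15, pandas 2.3.3, numpy 2.4.6, scipy 1.17.1, R 4.3.3 and edgeR 4.0.16, the last for TMM factors only.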

Additional observations from a re-analysis of the deposited data

How the results depend on the processing

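No paired analysis was possible because there is 1 library per genotype, so no replicates can be paired; wells were compared by plate position as a description. Of 242 alternative values of single genes, 233 moved by less than the counting interval, 9 moved beyond it and 0 reversed beyond it. The log2 ratio of the summed counts of the 9 genes was 0.22 (0.03 to 0.42) for Cnga3-/- over wildtype, 0.63 (0.44 to 0.82) for Pde6ccpfl1 over wildtype and 0.40 (0.24 to 0.57) for Pde6ccpfl1 over Cnga3-/-. It moved to 0.48 and 0.90 in the first 2 comparisons over wells with a cone marker count, to 0.43 for Pde6ccpfl1 over wildtype over positions kept in all 3 plates, and to 0.21 (-0.12 to 0.54) for Pde6ccpfl1 over Cnga3-/- in thinned wells. For Cnga3-/- over wildtype it was 0.04 (-0.19 to 0.26) without the 4 positions, 0.07 (-0.15 to 0.28) over positions kept in all 3 plates and 0.29 (-0.09 to 0.67) in thinned wells, each within counting error. The number of genes at least 2-fold apart was 395, 407 and 267 in the same comparisons, 795, 862 and 451 with a filter of 10 counts, and 70, 74 and 49 with 200 counts; the filter changes which genes are compared. Single values that moved were Stat3 in Cnga3-/- over wildtype (0.47 over wells with a cone marker count, -0.06 without the 4 positions) and in Pde6ccpfl1 over wildtype (0.96 over cone marker wells). Osmr moved in Cnga3-/- over wildtype (1.30 thinned, -1.08 without the 4 positions), in Pde6ccpfl1 over wildtype (2.38) and in Pde6ccpfl1 over Cnga3-/- (2.43 over cone marker wells, 2.35 without the 4 positions), and Lifr in Cnga3-/- over wildtype (2.58 without the 5 deepest wells). The causes were not tested. Depth limits the ligands, Il6st and Socs3.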

Other observations

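Outside the 9 genes, the position E07 held the highest CPM of 10 genes in all 3 plates, and Stat3 was 1 of them. The others were Cldn12, Fads3, Krtap26-1, Lrfn2, Ppp1r21, Rabgap1, Ric8b, Rims4 and Setd1b. At E07, Cldn12, a claudin, had 91 of 257 library counts in Cnga3-/-, 126 of 476 in Pde6ccpfl1 and 86 of 370 in wildtype. Gfap, the intermediate filament of reactive glia, had 7 counts in Cnga3-/-, 16 in Pde6ccpfl1 and 9 in wildtype, and its highest well was C02 in every plate, with 5, 7 and 3 counts. C02 was also the highest well of Lif in Cnga3-/-, while in wildtype C02 and F08 tied at 3 Lif counts.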
